A study of Mus musculus with 6 samples.

Results

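The genes described here are the receptors of interleukin-1, interleukin-18, interleukin-33 and interleukin-36 together with the decoys and antagonist that restrain them, 9 genes chosen by name. Of these, 8 had a probe set annotated to their symbol alone and were among the 22180 genes measured. Il1rl1, the interleukin-33 receptor gene, had none in the annotation table used and was not analysed here. The RNA came from LSK cells, lineage-negative, Sca1-positive and cKit-positive bone marrow cells, among them blood stem cells and early progenitors. The compared groups were 3 arrays of LSK cells from mice transplanted with Tifab-/- (KO) marrow and 3 arrays from mice transplanted with Tifab+/+ (WT) marrow, with 3 mice per group by the labels. Both groups shared the transplantation: the labels give 3-month-old mice and lethally irradiated Boy/J recipients, with 7.0 Gy and 4.75 Gy given 3 hours apart. Whether these 3 months count from birth or from the transplantation was unclear from the labels, and the sources used here name no donor marker in the sort. The arrays were Affymetrix MoGene 2.0 ST arrays, and every level below is a deposited log2 probe set signal.

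In this receptor family a ligand is held by a binding chain, which then recruits an accessory chain, and the paired intracellular TIR domains gather MyD88, IRAK kinases and TRAF6 to activate NF-kB. Il1r1 with Il1rap forms the interleukin-1 receptor, Il18r1 with Il18rap the interleukin-18 receptor, and Il1rl2 with Il1rap the interleukin-36 receptor. The brakes act at the surface: Il1r2 binds interleukin-1 but has no signalling domain, Il1rn is a secreted antagonist that occupies Il1r1, and Sigirr is an inhibitory member of the family. Interleukin-1 is known for driving stem cells in the marrow towards myeloid output. Tifab encodes a relative of TIFA, a partner of TRAF6, and the title of the series names Toll-like receptor and TRAF6 signalling, a pathway that these receptors share.

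Among protein-coding genes in the order of GRCm38.p6, 6 of the 9 stand side by side on chromosome 1 as Il1r2, Il1r1, Il1rl2, Il1rl1, Il18r1 and Il18rap. Il1rn lies on chromosome 2, Sigirr on chromosome 7 and Il1rap on chromosome 16. The 250 bases before the annotated start are shown for Il1r2 and Il18r1, the members with the lowest p values, and for Il18rap, the partner chain that neighbours Il18r1. They come from RefSeq, build GRCm38.p6, plus strand, at chr1:40085843-40086092, chr1:40465302-40465551 and chr1:40515112-40515361. Capitals mark matches on either strand to NF-kB (GGANTTTCC), AP-1 (TGANTCA), E-box (CACGTG), C/EBP (TTGCNNAA) or PU.1 (GAGGAAGT), a set of motifs chosen after the sequences were seen. No match overlaps another in these 3 windows.
Il1r2: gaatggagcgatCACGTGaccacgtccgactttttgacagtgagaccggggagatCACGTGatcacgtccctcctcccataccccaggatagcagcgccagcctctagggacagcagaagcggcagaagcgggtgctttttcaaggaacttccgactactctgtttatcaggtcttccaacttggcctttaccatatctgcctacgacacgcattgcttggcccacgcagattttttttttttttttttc
Il18r1: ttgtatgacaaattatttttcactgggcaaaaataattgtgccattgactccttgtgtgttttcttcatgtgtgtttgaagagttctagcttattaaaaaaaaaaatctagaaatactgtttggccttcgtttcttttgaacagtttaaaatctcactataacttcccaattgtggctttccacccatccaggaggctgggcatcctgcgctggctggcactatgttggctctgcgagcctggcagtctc
Il18rap: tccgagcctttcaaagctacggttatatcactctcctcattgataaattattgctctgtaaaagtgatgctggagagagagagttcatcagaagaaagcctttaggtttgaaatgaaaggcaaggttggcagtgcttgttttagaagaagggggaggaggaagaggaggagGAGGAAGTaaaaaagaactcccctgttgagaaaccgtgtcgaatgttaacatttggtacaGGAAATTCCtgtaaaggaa
The Il1r2 window holds 2 E-box matches and no other, where 6.02% of 32851 mouse promoter windows of this length hold at least 1 E-box. The Il18rap window holds 1 PU.1 match, a motif in 2.44% of windows, and 1 NF-kB match, a motif in 1.07% of windows. The Il18r1 window holds none of the 5 motifs. Among the other members, AP-1 letters, in 6.75% of windows, lie before the first Il1rn start, and NF-kB letters before the Il1rl2 start. C/EBP letters, in 9.56% of windows, lie before the first start of Il1r1 and of Il1rl1 and before that of Il1rl2. The Il1rap window holds no match. A match is only a run of letters, and its absence says nothing about a factor.

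The knocked-out gene gave no check on the labels. Tifab read 5.21, 5.12 and 5.26 in KO arrays, against 4.99, 5.37 and 5.53 in WT arrays, and where its probes lie relative to the deletion was not stated in the sources used here. Kit, a gene of the gate, lay at 9.41 to 9.59 over KO arrays and 9.50 to 9.69 over WT arrays. Cd34, which the gate does not use, lay at 10.47 to 10.66 over KO arrays and 10.32 to 10.55 over WT arrays. The neutrophil gene S100a8 was brighter still, averaging 11.48 in KO arrays and 11.54 in WT arrays, so brightness is no check of the sort. Sca1 itself (Ly6a) had no probe set of its own. Array medians were 4.08 to 4.09 in the KO group and 4.05 to 4.10 in the WT group. Mean correlation with the remaining arrays, across genes, was 0.981 to 0.982 for KO arrays and 0.976 to 0.980 for WT arrays, lowest for WT replicate 1. No gene passed an adjusted p of 0.05 in limma (0% of genes), while 2274 genes had an unadjusted p under 0.05.

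Il1r2, the interleukin-1 decoy receptor, and Il18r1, the binding chain for interleukin-18, were lower in all 3 KO arrays than in any WT array. The other 6 measured members overlapped between the groups. Il1r2 averaged 3.74 ± 0.16 in KO arrays and 5.07 ± 0.88 in WT arrays, and Il18r1 4.82 ± 0.18 in KO arrays and 5.27 ± 0.02 in WT arrays (SD, n = 3 each). These 2 of 8 members had an unadjusted p under 0.05, where 10.3% of all genes did and 5.51% did so on the lower side. Neither passed after adjustment over all genes. The median log2 fold change was -0.09 over the 8 members and 0.00 over all genes, with 6 members lower and 2 higher in KO arrays. Groups did not overlap for 16.1% of all genes, and every KO array was below every WT array for 8.37% of all genes. In RNA from sorted populations, fewer cells that express a gene and less RNA per cell cannot be told apart.

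**Figure D1:**
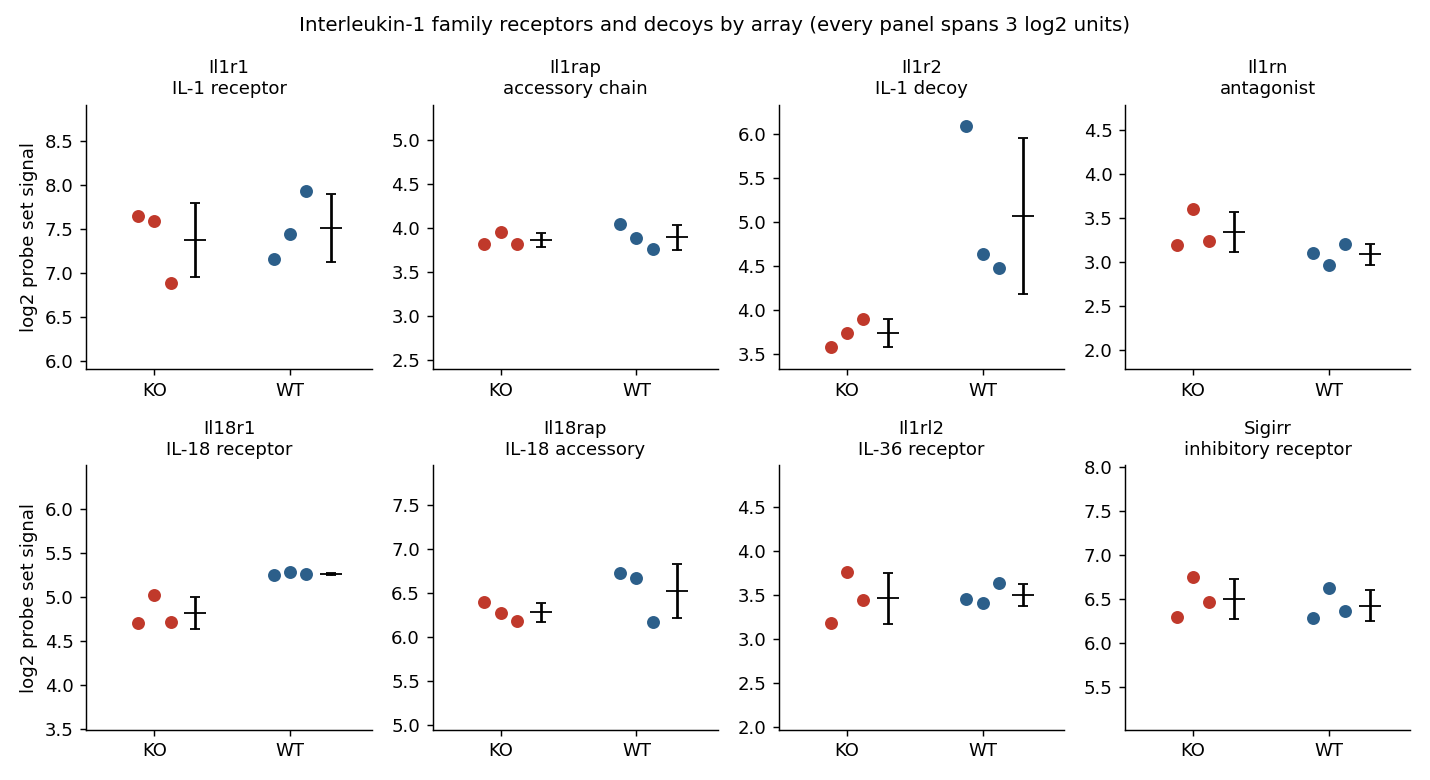
Log2 probe set signal of the 8 measured receptor, decoy and antagonist genes in 3 KO arrays (red) and 3 WT arrays (blue). A black bar gives the group mean and SD. Every panel spans 3 log2 units around its own midpoint, so heights cannot be compared between panels. The Il1r2 points of the KO arrays lie between 3.58 and 3.90, all under the lowest WT array at 4.48, and 1 WT array stands apart at 6.09.

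The interleukin-1 receptor itself showed no separation. Il1r1, the signalling receptor, read 7.64, 7.59 and 6.89 in KO arrays, against 7.16, 7.45 and 7.93 in WT arrays. KO replicate 3 held the lowest value and WT replicate 3 the highest, with the other 4 arrays mixed. The log2 fold change was -0.14 ± 0.25 (SE; 95% interval -0.70 to 0.42; limma adjusted p = 0.885), and it turned to 0.10 without KO replicate 3 and to 0.07 without WT replicate 3. The interval includes differences of either sign, so Il1r1 is not shown to be equal between the groups. The Il1r1 probe set lay at percentile 89.9 of mean signal over all genes, which describes the probe set and not the abundance of the transcript.

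Il1rap, the accessory chain that interleukin-1, interleukin-33 and interleukin-36 receptors share, read 3.82, 3.96 and 3.82 in KO arrays, against 4.04, 3.89 and 3.76 in WT arrays. The KO values lay inside the WT range, and the log2 fold change was -0.03 ± 0.15 (SE; 95% interval -0.37 to 0.31; limma adjusted p = 0.963). Without WT replicate 1 it was 0.04. The gene has 3 probe sets, and the dimmer ones disagreed. The first of these averaged 2.37 in KO arrays and 2.66 in WT arrays, a log2 fold change of -0.28 ± 0.12 (SE) in a fit over all probe sets, with every KO array under every WT array. Its unadjusted limma p was 0.0480. The second averaged 2.91 in KO arrays and 2.82 in WT arrays, a difference of 0.08 ± 0.15 (SE). Which transcript forms of Il1rap, membrane or soluble, each probe set reads was not stated in the sources used here.

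Il1r2, the decoy that captures interleukin-1 without signalling, had the largest difference of the members. Its probe set read 3.58, 3.74 and 3.90 in KO arrays, against 6.09, 4.64 and 4.48 in WT arrays. All KO arrays were under all WT arrays, and WT replicate 1 stood well above the other WT arrays. The log2 fold change was -1.33 ± 0.37 (SE; 95% interval -2.16 to -0.51), which puts the KO level at 0.398 of the WT level, with an unadjusted p of 0.00517 and an adjusted p of 0.344 in limma. Over the other settings and with 1 array left out in turn, the adjusted p ranged between 0.202 and 0.647. Without WT replicate 1 the difference was -0.82 ± 0.17 (SE), still lower in all 3 KO arrays, with an unadjusted limma p of 0.00141 and an adjusted p of 0.380. Without moderation of the spread the unadjusted p was 0.0623. The mean signal sat at percentile 49.8 of all genes, in a brightness decile with a median log2 fold change of 0.06. Whether the KO readings lay above background was not tested, so the ratio to the WT level describes the probe set signal.

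Il1rn, the secreted antagonist of the interleukin-1 receptor, was a dim probe set at percentile 25.4. It read 3.19, 3.61 and 3.23 in KO arrays, against 3.10, 2.96 and 3.20 in WT arrays, so that 2 of 3 KO arrays lay above every WT array. The log2 fold change was 0.26 ± 0.16 (SE; 95% interval -0.11 to 0.62; limma adjusted p = 0.614) and was 0.12 when KO replicate 2 was left out. The decoy and the antagonist, both brakes on interleukin-1, thus had estimates of opposite sign, and that of the antagonist did not pass at an unadjusted p either (0.150).

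The interleukin-18 receptor chains both had lower estimates in KO arrays. Il18r1, the chain that binds the cytokine, read 4.71, 5.03 and 4.72 in KO arrays, against 5.25, 5.28 and 5.26 in WT arrays. The WT arrays lay within 0.03 of each other, and all KO arrays were below them. The log2 fold change was -0.45 ± 0.16 (SE; 95% interval -0.80 to -0.09), or 0.734 of the WT level, with an unadjusted p of 0.0192 and an adjusted p of 0.405 in limma. Leaving out KO replicate 1 or KO replicate 3 gave -0.39 and -0.40, with unadjusted p of 0.0712 and 0.0624. The interval uses limma's moderated spread, which draws on genes of like brightness, and the WT arrays by themselves varied less than the KO arrays.

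Il18rap, the accessory chain that lets the interleukin-18 receptor signal, read 6.39, 6.27 and 6.18 in KO arrays, against 6.72, 6.66 and 6.17 in WT arrays. WT replicates 1 and 2 were above all KO arrays, and WT replicate 3 was below them all. The log2 fold change was -0.24 ± 0.18 (SE; 95% interval -0.65 to 0.17; limma adjusted p = 0.671). Without WT replicate 3 it was -0.41 ± 0.17 (SE, unadjusted p = 0.0359, adjusted p = 0.374 in limma), and without WT replicate 1 it was -0.14. Whether this chain reached the unadjusted threshold thus depended on WT replicate 3.

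The remaining receptors overlapped closely. Il1rl2, the interleukin-36 receptor, read 3.19, 3.76 and 3.45 in KO arrays, against 3.46, 3.41 and 3.64 in WT arrays, with both the lowest and the highest value among KO arrays. Its log2 fold change was -0.04 ± 0.18 (SE; 95% interval -0.44 to 0.37; limma adjusted p = 0.962), at a dim percentile of 31.6. Sigirr, which dampens Toll-like and interleukin-1 receptor signalling, read 6.30, 6.75 and 6.47 in KO arrays, against 6.29, 6.63 and 6.36 in WT arrays. Its log2 fold change was 0.08 ± 0.17 (SE; 95% interval -0.31 to 0.47; limma adjusted p = 0.907). Neither estimate kept its sign over the arrays left out in turn: Il1rl2 gave 0.10 without KO replicate 1 and 0.03 without WT replicate 3, and Sigirr gave -0.04 without KO replicate 2.

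**Figure D2:**
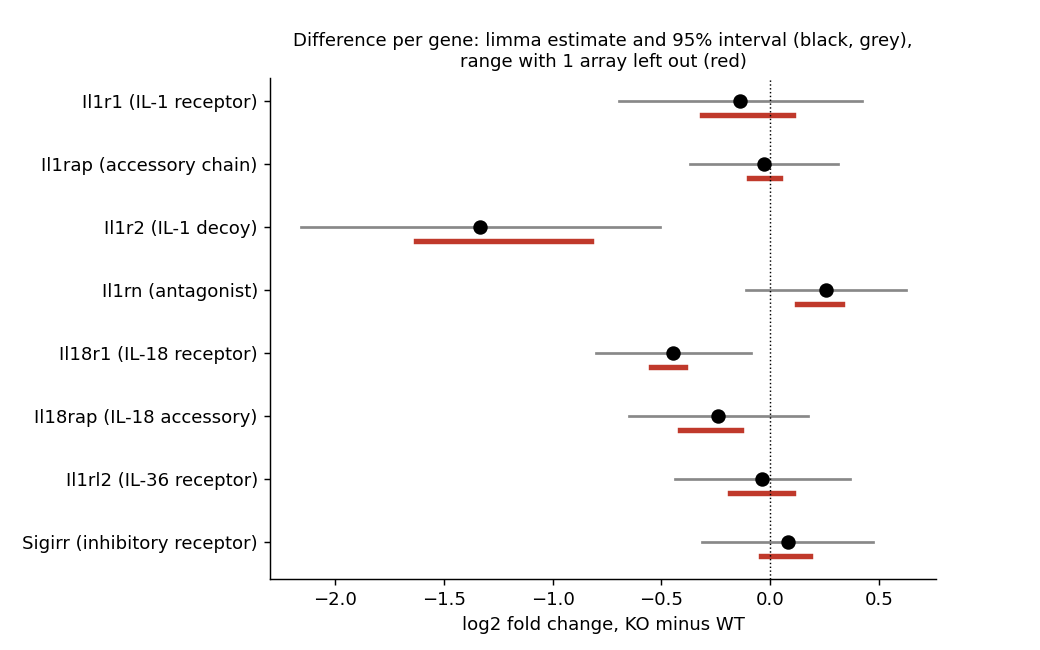
Log2 fold change of KO minus WT (horizontal axis) for the 8 measured genes, as the limma estimate (black point) with its 95% interval (grey line) and the range of estimates with 1 array left out in turn (red line). Only the intervals of Il1r2 and Il18r1 stay below 0, and the red range of Il1r2 reaches up to -0.82.

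The 5 measured genes of the chromosome 1 cluster all had estimates below 0, of sizes that ranged widely. In gene order these were Il1r2 at -1.33, Il1r1 at -0.14, Il1rl2 at -0.04, Il18r1 at -0.45 and Il18rap at -0.24, and differences between these genes were not tested. The estimates of Il1r1 and Il1rl2 changed sign when single arrays were left out. Map4k4, a kinase gene next to Il1r2 in the gene order, read 7.27, 7.25 and 6.92 in KO arrays, against 7.39, 7.34 and 7.09 in WT arrays, a log2 fold change of -0.13 ± 0.16 (SE). Slc9a4, a sodium-proton exchanger gene on the other flank next to Il18rap, had -0.26 ± 0.15 (SE), and Slc9a2, a related exchanger gene beyond it, 0.48 ± 0.19 (SE, limma adjusted p = 0.447). The predicted gene Gm3646, beyond Map4k4, was dim and had -0.19 ± 0.13 (SE), with every KO array under every WT array. The outermost flanking genes examined, Rfx8 and Mfsd9, had -0.07 ± 0.16 and 0.05 ± 0.16 (SE).

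The cytokines that feed these receptors were examined next. Of 9 measured ligand and binding protein genes, 5 were lower and 4 higher in KO arrays with a median log2 fold change of -0.02, against 0.00 over all genes. By unadjusted p under 0.05, lower genes numbered 2 and higher genes 0, where 5.51% of all genes were lower by that rule. None passed over all genes in limma. Il1b, the inducible interleukin-1 gene of myeloid cells, read 4.13, 4.46 and 4.21 in KO arrays, against 5.30, 5.12 and 4.93 in WT arrays. The groups did not overlap, and the log2 fold change was -0.85 ± 0.17 (SE, limma adjusted p = 0.297). Il1a, the other agonist of Il1r1, was near the dim end at 2.79 ± 0.12 in KO arrays and 3.13 ± 0.15 in WT arrays (SD, n = 3 each). Its unadjusted limma p was 0.0475, and 0.0762 after quantile normalization. Il18, the ligand of Il18r1, overlapped at 6.29 in KO arrays and 6.26 in WT arrays, and its soluble inhibitor Il18bp at 6.07 in KO arrays and 5.93 in WT arrays. Il33, the ligand of the receptor not analysed here, had 0.25 ± 0.16 (SE).

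The orphan receptors Il1rapl1 and Il1rapl2, better known from the nervous system, had -0.15 ± 0.18 and 0.14 ± 0.17 (SE), both with overlapping groups. Among 11 genes that mature or release the ligands, 8 were higher and 3 lower in KO arrays, with a median log2 fold change of 0.24. By unadjusted p under 0.05, higher genes numbered 2 and lower genes 0, where 4.74% of all genes were higher by that rule. Ctsg, a granule protease of granulocyte progenitors that can cleave interleukin-1 family cytokines, averaged 10.38 ± 0.18 in KO arrays and 9.97 ± 0.03 in WT arrays (SD, n = 3 each). Every KO array lay above every WT array, where 16.1% of all genes did not overlap in one direction or the other. The log2 fold change of Ctsg was 0.41 ± 0.10 (SE, limma adjusted p = 0.334). Casp1, the protease that activates interleukin-1 beta and interleukin-18, averaged 7.22 ± 0.11 in KO arrays and 6.89 ± 0.14 in WT arrays (SD, n = 3 each). Its difference of 0.33 ± 0.14 (SE) had an unadjusted limma p of 0.0490, which was 0.0891 after median centring.

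Downstream of the receptors, 22 of 24 listed adaptors, kinases and ligases were measured. Of these 12 were higher and 10 lower in KO arrays, with a median log2 fold change of 0.07. By unadjusted p under 0.05 the lower genes numbered 2 and the higher 0, where 5.51% of all genes were lower. Sqstm1, the p62 scaffold that binds TRAF6, averaged 8.52 ± 0.09 in KO arrays and 9.08 ± 0.23 in WT arrays (SD, n = 3 each), a log2 fold change of -0.56 ± 0.14 (SE, limma adjusted p = 0.334). Irak3, an IRAK family member that restrains the pathway, averaged 5.94 ± 0.09 in KO arrays and 6.30 ± 0.12 in WT arrays (SD, n = 3 each), with -0.36 ± 0.15 (SE, limma adjusted p = 0.467). Myd88, the adaptor that the receptors share with Toll-like receptors, had -0.24 ± 0.16 (SE) and Traf6 -0.21 ± 0.23 (SE), and their groups overlapped.

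Of 11 measured feedback genes, which interleukin-1 and NF-kB induce in many cell types, 10 were lower and 1 was higher in KO arrays, with a median log2 fold change of -0.17. By unadjusted p under 0.05, lower genes numbered 2, higher genes 0 and the rest 9, where 5.51% of all genes were lower by that rule. Nfkbie, an inhibitor of NF-kB, read 6.63, 6.50 and 6.48 in KO arrays, against 7.34, 7.24 and 7.14 in WT arrays. Nfkbia, the main such inhibitor, read 9.72, 9.67 and 9.70 in KO arrays, against 9.92, 10.05 and 10.11 in WT arrays. For both genes the groups did not overlap, with log2 fold changes of -0.70 ± 0.14 and -0.33 ± 0.09 (SE, limma adjusted p = 0.297 and 0.344). Tnfaip3, which encodes the A20 deubiquitinase, had -0.30 ± 0.16 (SE) and the cytokine signalling inhibitor Socs3 -0.32 ± 0.24 (SE), and neither reached an unadjusted p of 0.05. These lists were drawn up with earlier results of these data known, so their counts are descriptions and not independent evidence of a direction.

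**Figure D3:**
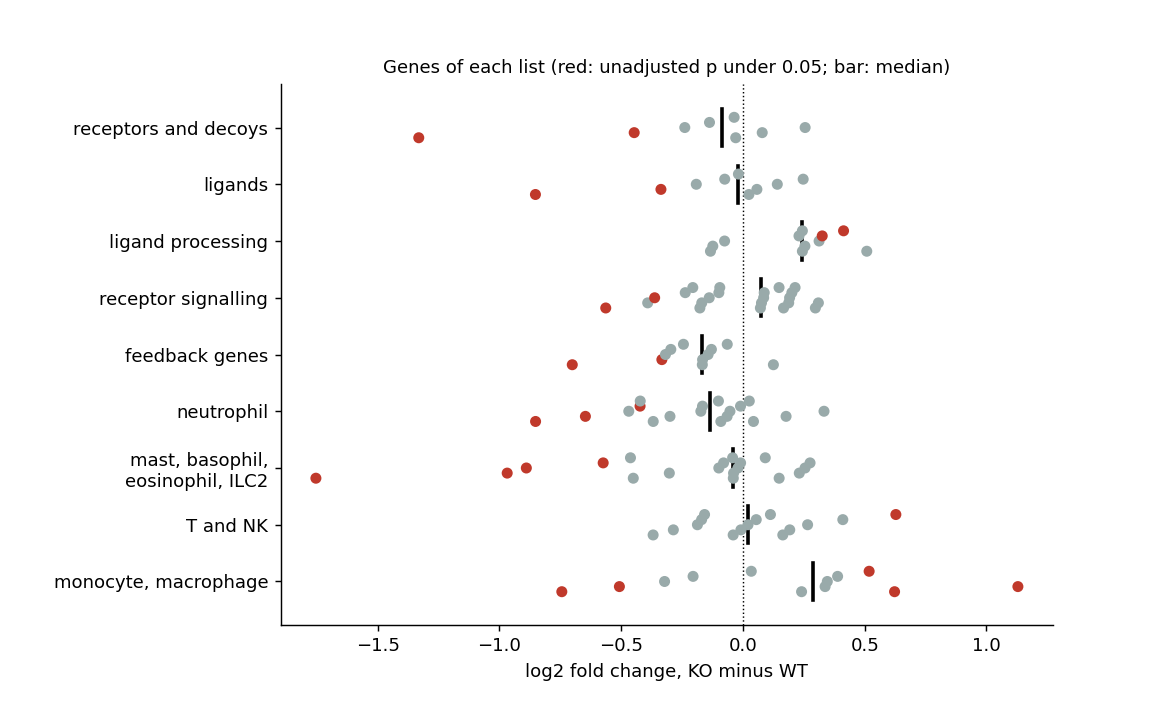
Log2 fold change of KO minus WT (horizontal axis) for each measured gene of 9 lists (rows), with genes at an unadjusted p under 0.05 in red and the list median as a black bar. Il1r2 is the leftmost point of the receptors, and 10 of the 11 feedback genes lie left of 0.

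Markers of cells that carry these receptors in blood and tissue were read in the same arrays. Of 18 neutrophil genes, a cell type rich in Il1r2, 14 were lower and 4 higher in KO arrays. By unadjusted p under 0.05 the lower genes numbered 3 and the higher 0, where 5.51% of all genes were lower. The mean signal of the list spanned 6.58 to 6.91 over KO arrays and 6.78 to 6.99 over WT arrays, so the groups overlapped. Mmp8, a neutrophil collagenase, had -0.85 ± 0.24 (SE), Ifitm6 -0.65 ± 0.18 (SE), Cd177 -0.42 ± 0.18 (SE) and Stfa1 -0.42 ± 0.23 (SE). Every KO array was below every WT array for 3 of the list, Mmp8, Ifitm6 and Cd177, and above for 0. Over all genes 8.37% were below in this way. Ly6g, the defining surface antigen of mouse neutrophils, read 5.97, 4.54 and 6.14 in KO arrays, against 6.52, 4.36 and 5.24 in WT arrays. The Ly6g groups overlapped, with the highest value in WT replicate 1. The bright S100a8 had -0.06 ± 0.07 (SE). The dimmest of the list, Stfa2, averaged 2.78 in KO arrays and 2.94 in WT arrays. The part of neutrophil RNA in the Il1r2 result was not tested.

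For the interleukin-18 receptor, 15 T and NK cell genes served as the comparison. Of these 8 were higher and 7 lower in KO arrays. By unadjusted p under 0.05 the higher genes numbered 1 and the lower 0, where 4.74% of all genes were higher. The list mean spanned 4.20 to 4.30 over KO arrays and 4.09 to 4.34 over WT arrays. The gene on the higher side was Klrd1, an NK cell receptor chain, at 0.63 ± 0.18 (SE). The T cell receptor genes Cd3g and Cd3d had -0.37 ± 0.21 and 0.41 ± 0.26 (SE), and the perforin gene Prf1 -0.29 ± 0.19 (SE). Cd3e read 4.16, 4.80 and 4.69 in KO arrays, against 5.73, 4.68 and 3.80 in WT arrays, and its groups overlapped. Most of the list was dim, with 10 of the 15 genes below the median signal over all genes. Nkg7, the brightest of the list at percentile 98.6, had -0.04 ± 0.13 (SE). The part of lymphoid RNA in the Il18r1 result was not tested.

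Of 12 genes of monocytes and macrophages, cells that make Il1rn, Il1b and Il18, 8 were higher and 4 lower in KO arrays, with a median log2 fold change of 0.29. By unadjusted p under 0.05 the higher ones numbered 3 and the lower ones 2, where 4.74% of all genes were higher and 5.51% lower. The list mean spanned 5.50 to 5.58 over KO arrays and 5.29 to 5.52 over WT arrays. The monocyte antigen gene Ly6c2 had 1.13 ± 0.27 (SE), the complement genes C1qa and C1qb 0.52 ± 0.17 and -0.51 ± 0.16 (SE), and Vcam1 -0.74 ± 0.23 (SE). F13a1, a coagulation factor gene of monocytes that was added after its values were seen, had 0.62 ± 0.21 (SE), with every KO array above every WT array. Over all genes, the groups did not overlap for 16.1%, both directions counted. Of 19 mast cell, basophil, eosinophil and innate lymphoid genes, 14 were lower and 5 higher. The lower ones numbered 4 and the higher 0 by the same rule, beside the 5.51% of all genes on the lower side. List means were 4.36 to 4.75 over KO arrays and 4.63 to 4.81 over WT arrays. The eosinophil granule gene Prg2 read 6.44, 9.65 and 6.38 in KO arrays, against 9.62, 8.87 and 9.23 in WT arrays. Its difference was -1.75 ± 0.73 (SE) with all arrays and -2.83 without KO replicate 2 (limma adjusted p = 0.0177). Epx, of the same granules, had -0.89 ± 0.35 (SE), the eotaxin receptor gene Ccr3 -0.97 ± 0.22 (SE) and Ms4a2, a chain of the IgE receptor, -0.57 ± 0.22 (SE). Ccr3 was dim, averaging 2.13 in KO arrays and 3.10 in WT arrays, as was Ms4a2 at 3.35 in KO arrays and 3.92 in WT arrays. Brighter mast cell and basophil genes of the list overlapped between the groups. Mcpt8 had 0.26 ± 0.24, Cpa3 -0.02 ± 0.24 and Prss34 -0.01 ± 0.24 (SE). Fcer1a, another chain of the IgE receptor, had -0.10 ± 0.31 and the eosinophil gene Siglecf 0.23 ± 0.18 (SE), both with overlapping groups. Of 8 B and plasma cell genes 6 were higher and 2 lower, none had an unadjusted p under 0.05 in limma and none passed over all genes; Cd79b had 0.40 ± 0.23, Ebf1 0.27 ± 0.20, Jchain 0.53 ± 0.39 and Vpreb1 -0.34 ± 0.27 (SE). Of the 8 measured genes of the gate and of stem cells, 1 was higher and 1 lower by that rule: Meis1 had 0.39 ± 0.13 and Hlf -0.33 ± 0.13 (SE). Flt3 had -0.24 ± 0.13 and Cd34 0.13 ± 0.09 (SE).

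Il1r1 and Il1r2 were the members whose 6 values spanned more than 1 log2 unit, 1.04 and 2.51. For each, the genes closest in pattern were taken as those with the smallest mean absolute difference over the 6 arrays after centring every gene on its own mean, among 16850 named protein-coding genes. Acads, a mitochondrial acyl-CoA dehydrogenase gene, lay 0.17 log2 units from Il1r2 on average, the zinc-finger gene Zfp932 0.19 and Efcab2 0.31. Acads read 6.37, 6.40 and 6.45 in KO arrays, against 8.59, 6.95 and 6.66 in WT arrays, with its highest value in WT replicate 1, as for Il1r2. Zfp932 likewise read 6.17 in WT replicate 1 and between 3.85 and 4.46 elsewhere. Closest to Il1r1 were Triap1 and Hsdl2 at 0.06 each and Maco1 at 0.07, and KO replicate 3 was the lowest array for all 4 of these genes. With 6 arrays and so many genes, close patterns can be found for that reason alone. How common they are was not measured, and the likeness is a description.

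**Figure D4:**
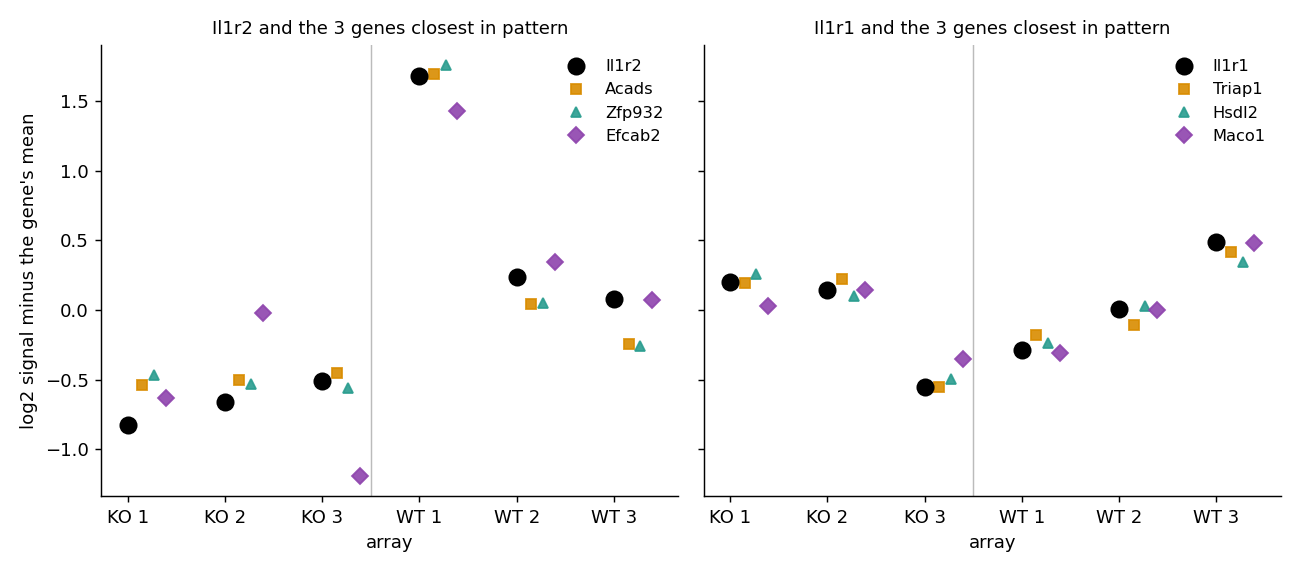
Log2 signal minus each gene's mean (vertical axis) in the 3 KO and 3 WT arrays for Il1r2 (left, black) and Il1r1 (right, black) with the 3 genes closest to each in pattern (colours). The peak of Il1r2 in WT replicate 1 is shared by Acads, Zfp932 and Efcab2, and the dip of Il1r1 in KO replicate 3 by its neighbours in pattern.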

How the data were processed

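LSK RNA was measured in 6 samples, 3 KO and 3 WT, on 1 Affymetrix array each. The authors deposited log2 probe set values for 41345 probe sets, made with Affymetrix Expression Console per the submitters' processing notes; the sources used here state no background correction, summary, normalization or version. The values were used as deposited. Precision is limited by the number of arrays.

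Of the probe sets, 23521 had 1 symbol in the platform annotation, 1814 had several and were left out, and 16010 were not listed. Entrez identifiers of 23328 matched RefSeq genes of GRCm38.p6 and changed 0 symbols. The probe set with the highest mean stood for a gene, leaving 22180 genes.

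Groups were compared with limma 3.58.1 in R 4.3.3 (lmFit, eBayes with an intensity trend, genotype as the only term, two-sided, Benjamini-Hochberg adjustment over all genes, threshold 0.05), checked on simulated data. Fold changes are KO minus WT in log2 units. The members, lists, tests and rules were chosen with earlier results of these data known. The named genes are all members, pathway list genes at an unadjusted p under 0.05 (at least 2 per list), the 4 of smallest p in each cell type list and the 3 genes closest to each widely varying member; other genes were named after their values were seen. Alternatives were other moderation, array weights, quantile, cyclic loess and median scaling, no dim genes, averaged probe sets, a replicate block and each array left out.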

Additional observations from a re-analysis of the deposited data

How the results depend on the processing

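No member passed the adjusted threshold in any of the settings tried. The number of members at an unadjusted p under 0.05 was 2 as deposited and 1 without moderation of the spread, where Il18r1 was the one left. It ranged between 1 and 3 with 1 array left out: 1 without KO replicate 1 or KO replicate 3 (Il1r2 alone) and 3 without WT replicate 3, where Il18rap joined. Whether replicate numbers pair the samples is not stated in the labels. Deviations of same-numbered arrays from their group means correlated at 0.02, -0.03 and -0.09 across genes. Only 1 of 6 arrays correlated best with its own number. No pairing was seen in these values, and shared handling of same-numbered samples was not tested. With the replicate block the count was 2 again, with Il1r2 at an unadjusted p of 0.00496 and Il18r1 at 0.0343. The count over all genes was 2274 as deposited (10.3%), 2119 with the replicate block, and between 1630 and 2713 with 1 array left out. Without dim genes it was 1218 of the 13308 genes then tested, or 9.15%. The number of genes past the adjusted threshold was 0 as deposited and between 0 and 1 with 1 array left out, namely Prg2 without KO replicate 2 and Iglv1 without WT replicate 3. With 1 array left out, Il1r1 ranged between -0.31 and 0.10, Il1rap between -0.10 and 0.04 (0.043 without WT replicate 1), Il1rl2 between -0.18 and 0.10, and Sigirr between -0.043 (without KO replicate 2) and 0.18, so these have no settled sign. Il1r2 ranged between -1.63 and -0.82, Il18r1 between -0.55 and -0.39, Il18rap between -0.41 and -0.14, and Il1rn between 0.12 and 0.33. The counts for the pathway lists, an alternative added after the data were seen, moved between 1 and 2 for the ligands and between 1 and 4 for ligand processing (4 without KO replicate 2) and for receptor signalling (4 without WT replicate 1). For the feedback genes the count was 3 without WT replicate 3 and 2 in every other setting. The deposited values carry no detection calls, so whether the dim probe sets of Il1rn, Il1rl2 and Il1rap measured signal above background was not tested. The same limit holds for Il1r2 in KO arrays, where its mean of 3.74 was below the Il1rap mean of 3.87.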
